A study of Mus musculus with 16 samples.

Results

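Dual specificity phosphatases of the MAP kinase family were followed across 4 groups of natural killer (NK) cells: Dusp1, Dusp2, Dusp4, Dusp5, Dusp6 and Dusp10. They were taken by symbol from the deposited count table, where each of the 6 had 1 row among 49671 genes. Of these, 13940 genes held enough counts to be tested, including 5 of the 6 phosphatases; Dusp4 fell below the filter and is given as counts.

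RNA was sequenced from NK cells sorted as live CD45+ CD3- NKp46+ DX5+ cells, 5 to 10 x 1e3 cells per library by the labels. All mice were FVB/N with the genotype Cdh1F/F;Trp53F/F;Foxp3GFP-DTR and carried an orthotopically transplanted KEP mammary tumour of 100 mm2. In these animals cells that express Foxp3, mainly regulatory T cells, carry the diphtheria toxin receptor, so the toxin acts on those cells and not directly on NK cells. Mice received 25 ug of diphtheria toxin (DT) or PBS at T = 0 and T = 7, a time whose unit the labels do not give. The 4 groups of 4 libraries each were LN PBS, LN DT, lung PBS and lung DT, where LN is the axillary lymph node that the labels call TDLN. Lungs were digested with 100 ug/mL Liberase for 30 minutes at 37 °C and their red cells were lysed; no digestion is stated for LN. Tissue and digestion therefore cannot be told apart in any comparison of lung with LN. The design text gives 4 biological replicates per group, and within a group each library was taken as 1 animal; whether LN and lung libraries come from the same mice is not given in the labels. In sorted pools, fewer cells that express a gene and less RNA per cell cannot be told apart.

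MAP kinases are switched on by double phosphorylation, and dual specificity phosphatases remove both phosphates and so end the signal. Several of their genes are themselves induced by the pathway within minutes, which makes them both brakes and a readout of recent stimulation. Dusp1, Dusp2, Dusp4 and Dusp5 encode nuclear enzymes that are induced by stimuli. Dusp6 encodes a cytoplasmic enzyme selective for ERK, and Dusp10 one that prefers the stress kinases JNK and p38. In NK cells MAP kinases act downstream of activating receptors and cytokines.

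The upstream sequences of Dusp1 and Dusp5, the pair whose transcripts differed between the tissues, are shown with that of Dusp6, whose transcript did not pass the test. The bases come from the RefSeq promoter table of GRCm38.p6, which matched 5 of the 6 genes. They run from 250 bases before the RefSeq start to the last base before both that start and the start of the gene in the deposited table. The Dusp1 sequence is chr17:26508520-26508722 on the minus strand, that of Dusp5 is chr19:53528895-53529108 on the plus strand, and that of Dusp6 is chr10:99262981-99263230 on the plus strand. Capitals mark TGACG, the core of the site of CREB-type factors, and the CArG box, the site of serum response factor.
Dusp1: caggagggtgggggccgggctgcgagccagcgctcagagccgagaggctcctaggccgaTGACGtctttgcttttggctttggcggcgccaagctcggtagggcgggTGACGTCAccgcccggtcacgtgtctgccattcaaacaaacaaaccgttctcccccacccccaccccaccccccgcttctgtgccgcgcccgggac
Dusp5: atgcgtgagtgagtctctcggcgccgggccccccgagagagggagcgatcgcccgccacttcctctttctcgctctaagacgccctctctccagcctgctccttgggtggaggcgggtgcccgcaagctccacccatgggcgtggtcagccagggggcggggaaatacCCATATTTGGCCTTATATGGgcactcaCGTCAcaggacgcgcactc
Dusp6: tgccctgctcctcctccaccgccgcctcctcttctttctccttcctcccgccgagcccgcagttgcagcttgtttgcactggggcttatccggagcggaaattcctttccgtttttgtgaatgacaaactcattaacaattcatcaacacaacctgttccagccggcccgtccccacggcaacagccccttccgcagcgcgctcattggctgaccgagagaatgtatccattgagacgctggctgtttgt
Both strands were searched over 300 bases, from 250 before to 50 after the RefSeq start. Dusp1 held 3 matches of TGACG, of which 2 overlap within 1 full TGACGTCA that begins 143 bases before the start. Dusp5 held 2 neighbouring CArG boxes, CCATATTTGG and CCTTATATGG, and 1 TGACG on the other strand. Dusp2 held 1 TGACG match, which lies after the start. Dusp6 and Dusp10 held none of these motifs. Other motifs were searched as well. The motif CACGTG had 1 match in Dusp1 and 1 in Dusp2, whose transcript did not pass the test, and none in the other genes. The motif CCAAT had 1 match in Dusp6 and 4 in Dusp10, and none in the other genes. The AP-1 site and the TATA box had no match in any of the 5 genes. The upstream sequence of Dusp2 was also available and is not printed here. Of the 32851 RefSeq windows of this length, 20.8% held TGACG, 1.79% held TGACGTCA and 1.63% a CArG box. These matches describe the letters alone.

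The libraries held 3929560 to 10744934 counts. Levels are counts per 1e6 (CPM). The gene of the gate's marker NKp46, Ncr1, had group means of 3289 to 6079 CPM, and of the chains of its negative marker Cd3e had 1.24 to 18.9, Cd3d 12.3 to 148 and Cd3g 26.1 to 210 CPM. Of 12 NK identity genes 1 was called in each tissue comparison: Gzmb was higher in lung in PBS (adjusted p = 0.0035), and Ncr1 itself was lower in lung in DT, at 3289 against 6079 CPM (log2 fold change -0.89 ± 0.25; adjusted p = 0.0381). Of all tested genes 2.7% were called higher in lung in PBS and 2.78% lower in lung in DT. Klrb1c was lower with DT on average over both tissues (adjusted p = 0.0323), where 3.9% of all tested genes were called. The part of these shifts in the results was not tested. The DT libraries numbered 1 stood apart from the rest, with Malat1 at 18216 CPM in LN and 17164 in lung against at most 8511 in the others. Mitochondrial genes took 1.05 to 1.68% of counts in LN PBS libraries and 1.24 to 4.93% in LN DT ones, and for lung 0.951 to 2.57% with PBS and 3.11 to 4.397% with DT. Genes are said to be called where the adjusted p of edgeR's quasi-likelihood test over all tested genes was under 0.05.

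Scaled to exon length, the phosphatase that led differed between the tissues. Dusp2 had the highest CPM per kb of the 6 in 8 of 8 LN libraries, and Dusp1 had the highest in 8 of 8 lung libraries. In LN PBS the levels per kb were 97.0 ± 53.9 for Dusp2, 31.4 ± 8.48 for Dusp6, 20.0 ± 10.8 for Dusp5, 16.6 ± 9.44 for Dusp1 and 6.21 ± 1.79 for Dusp10 (CPM per kb, SD, n = 4). Dusp6, Dusp5 and Dusp1 lay within each other's spread there, and Dusp4 was near 0, at 0.0339 ± 0.0678. In LN DT the order was Dusp2 at 68.5 ± 26.6, Dusp6 at 25.3 ± 14.4, Dusp1 at 19.6 ± 12.9, Dusp5 at 16.5 ± 3.36, Dusp10 at 13 ± 4.04 and Dusp4 at 0.184 ± 0.189, with Dusp6 to Dusp10 within each other's spread.

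In lung PBS Dusp1 stood at 1612 ± 1020 CPM per kb, above Dusp2 at 151 ± 92.4 and Dusp5 at 134 ± 48.7, which did not differ beyond their spread. Dusp6 at 22.1 ± 11.2, Dusp10 at 7.21 ± 1.91 and Dusp4 at 0.265 ± 0.187 followed. In lung DT the order was the same: 909 ± 396 for Dusp1, 139 ± 63.6 for Dusp2, 135 ± 92.7 for Dusp5, 20.1 ± 10.7 for Dusp6, 8.28 ± 3.23 for Dusp10 and 0.565 ± 0.968 for Dusp4. Dusp1 thus held 4.76 to 16.7% of the summed level of the 6 genes in LN PBS and 6.497 to 33.5% in LN DT. It held 68.0 to 88.2% in lung PBS and 49.6 to 90.9% in lung DT. Summed over the 6 genes, LN libraries averaged 171 ± 61.0 CPM per kb with PBS and 143 ± 35.0 with DT, and lung libraries 1926 ± 1084 with PBS and 1212 ± 253 with DT (SD, n = 4).

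**Figure D1:**
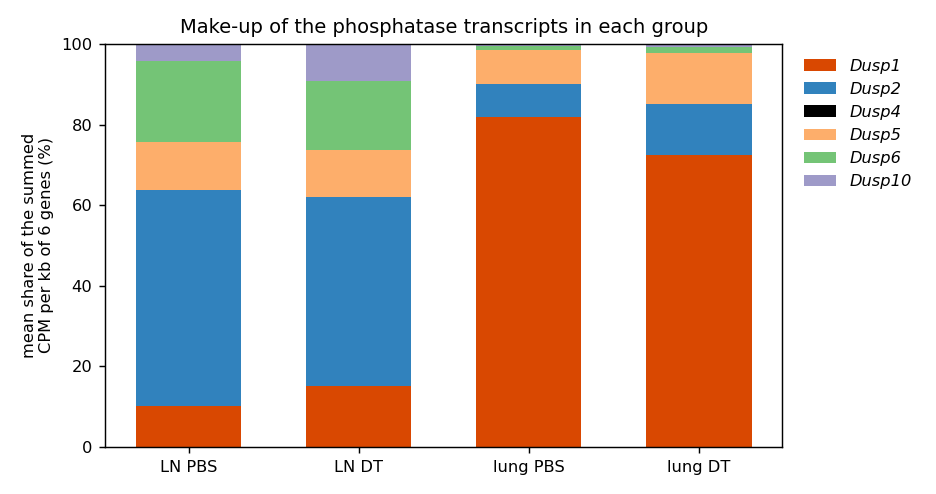
Each bar is a group of 4 libraries and each colour the mean share (%) that a gene had of the summed CPM per kb of the 6 phosphatase genes. Dusp2 is the largest block in both LN groups, with means of 53.6% and 46.8%, and Dusp1 in both lung groups, with 81.9% and 72.4%; Dusp4 is too thin to see.

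How NK cells of lung and LN differ was asked first in mice given PBS. Dusp1 and Dusp5 were higher in lung, and Dusp2, Dusp6 and Dusp10 did not pass the test. In that comparison 2.7% of all tested genes were called higher, and 2 of the 5 tested phosphatases were. Lung libraries all lay above all LN libraries for 9.25% of tested genes and for the same 2 phosphatases. In mice given DT, 2 of 5 were again called higher, against 3.97% of all tested genes, and the same 2 did not overlap, against 5.57%. The lung and LN libraries of the PBS and DT comparisons are different ones.

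Dusp1 acts on p38, JNK and ERK in the nucleus and is a classic immediate early gene. It lies at chr17:26505590-26508519 on the minus strand (GRCm38). The LN PBS libraries held 61.3, 23.7, 23.7 and 23.8 CPM of Dusp1 and the LN DT libraries 77.4, 29.3, 24.1 and 25.0. The lung PBS libraries held 6141, 1889, 2995 and 1803 CPM and the lung DT libraries 2821, 943, 1539 and 1932. Every lung library lay above every LN library, the lowest lung library by more than 10 times the highest LN library. In raw reads this was 191 to 583 counts per LN library and 6807 to 61852 per lung library. The log2 fold change of lung over LN was 6.60 ± 0.62 in PBS (SE; adjusted p = 5.11e-06), or 96.7-fold with a 95% interval of 39.3 to 238. In DT it was 5.54 ± 0.59 (adjusted p = 2.19e-05), or 46.5-fold with an interval of 19.7 to 109.7. Among the 13940 genes Dusp1 ranked 11 by p in the PBS comparison and 17 in the DT comparison.

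Dusp5 encodes a nuclear phosphatase that acts on ERK and is induced by it. It lies at chr19:53529109-53542431 on the plus strand, and its first bases overlap an antisense gene in the GENCODE annotation of GRCm38. The library kit does not mark strand, so reads of the 2 genes there cannot be told apart. The LN PBS libraries held 30.3, 88.2, 32.8 and 46.7 CPM of Dusp5, and the LN DT libraries 31.01, 49.1, 36.9 and 46.0. The lung PBS libraries held 322, 503, 260.3 and 237 CPM and the lung DT libraries 61.5, 599, 419 and 256. Within each treatment lung lay above LN in every library, although lung DT replicate 1, at 61.5, lay far below the other 7 lung libraries and below LN PBS replicate 2. The log2 fold change was 2.74 ± 0.52 in PBS (adjusted p = 0.00558), or 6.68-fold with a 95% interval of 3.13 to 14.3. In DT it was 3.03 ± 0.53 (adjusted p = 0.00251), or 8.18-fold with an interval of 3.79 to 17.6.

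**Figure D2:**
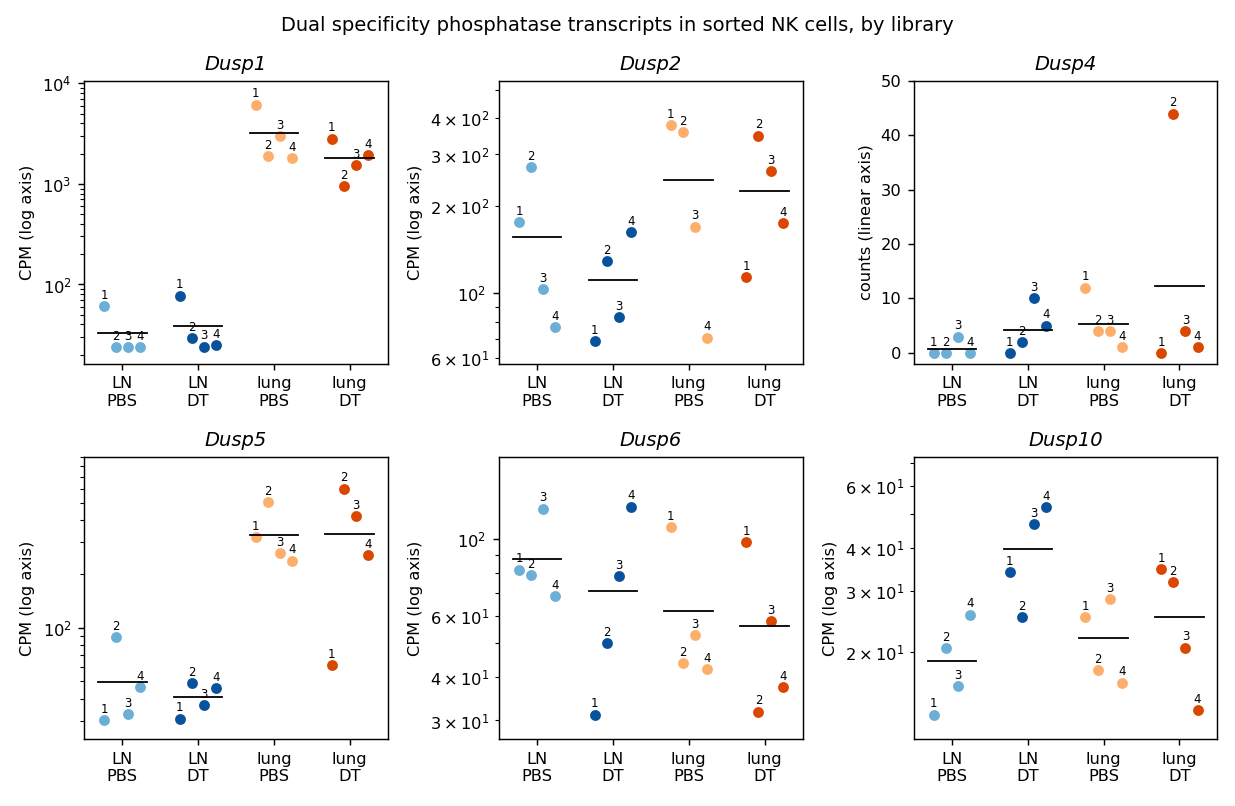
Each point is a library, with its replicate number, and each line a group mean; the vertical axes are CPM on log scales, except for Dusp4, which is in raw counts on a linear scale. Dusp1 and Dusp5 are higher in both lung groups, Dusp10 has its highest mean in LN DT, and 1 lung DT library holds 44 of the 49 Dusp4 counts of its group.

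Dusp2 encodes a nuclear phosphatase of activated leukocytes and lies at chr2:127336159-127338376 on the plus strand. The LN PBS libraries held 175, 272, 104 and 76.5 CPM, the LN DT libraries 68.7, 129, 83.0 and 162, the lung PBS libraries 379, 359, 169 and 70.5, and the lung DT libraries 114, 348, 264 and 174. The ranges of all 4 groups overlapped, and within lung PBS alone the libraries ran from 70.5 to 379 CPM. The log2 fold change of lung over LN was 0.64 ± 0.50 in PBS (adjusted p = 0.595; 95% interval -0.41 to 1.68). In DT it was 1.02 ± 0.50 (adjusted p = 0.257; 95% interval -0.031 to 2.07). In folds these intervals run from 0.755 to 3.21 in PBS and from 0.979 to 4.21 in DT.

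Dusp6 encodes the cytoplasmic phosphatase of ERK and lies at chr10:99263231-99267488 on the plus strand. The LN PBS libraries held 81.6, 78.8, 122 and 68.4 CPM and the LN DT libraries 31.2, 50.04, 78.1 and 124. The lung PBS libraries held 108, 43.8, 52.9 and 42.2 CPM and the lung DT libraries 97.8, 31.8, 58.0 and 37.5. Replicate 1 was the highest library of both lung groups, and without it lung PBS would lie wholly below LN PBS. The log2 fold change of lung over LN was -0.50 ± 0.44 in PBS (adjusted p = 0.648; 95% interval -1.42 to 0.41) and -0.33 ± 0.44 in DT (adjusted p = 0.743; 95% interval -1.25 to 0.59). In DT the sign rested on LN DT replicate 4, without which the value was 0.074.

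Dusp10, the phosphatase of stress kinases, lies at chr1:184013302-184075636 on the plus strand. The log2 fold change of lung over LN was 0.22 ± 0.37 in PBS (adjusted p = 0.841; 95% interval -0.56 to 1.00) and -0.65 ± 0.37 in DT (adjusted p = 0.346; 95% interval -1.43 to 0.13). Neither passed, and the library values, given with the DT comparison, overlapped in both.

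Dusp4 encodes a nuclear phosphatase close to Dusp1 in sequence and lies at chr8:34807297-34819894 on the plus strand. The LN PBS libraries held 0, 0, 3 and 0 counts, the LN DT libraries 0, 2, 10 and 5, the lung PBS libraries 12, 4, 4 and 1, and the lung DT libraries 0, 44, 4 and 1. No library passed 10 counts but lung PBS replicate 1 and lung DT replicate 2. The ratio of summed counts of lung to LN, scaled to library size, was 8.09 in PBS (21 against 3 counts; 95% counting interval 2.42 to 42.4). In DT it was 2.98 (49 against 17 counts; interval 1.69 to 5.52), and without lung DT replicate 2 only 5 counts were left in that group. These intervals cover counting error alone and not the spread between mice.

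What DT changed was asked within each tissue, averaged over both, and as the difference between the tissues. No phosphatase was called in any of the 4 comparisons. In LN 0.0646% of tested genes were called in either direction, in lung 0.108%, on average over both tissues 3.9%, and for the difference between the tissues 0.00717%. The groups did not overlap for 8.47% of tested genes in LN and 7.88% in lung, and for 0 of the 5 phosphatases in either. At an unadjusted p under 0.05 edgeR had 1 of the 5 in LN, 0 in lung, 1 on average and 0 for the difference, and the 1 was Dusp10 both times; of all tested genes 11.8%, 14.7%, 23.1% and 4.2% did so. DESeq2 called 0 in all 4 comparisons, and of all genes 2.34%, 3.27%, 11.4% and 0.136%. With sample quality weights limma-voom called 1 in LN, Dusp10, and 0 in the other 3, and of all genes 26.8%, 3.12%, 27.1% and 0%. A count of 1 of 5 is thus near the share over all genes in LN and on average, and is no result about the phosphatases.

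Dusp10 was the phosphatase nearest to the threshold. Its libraries held 13.3, 20.6, 15.99 and 25.7 CPM in LN PBS and 33.9, 25.2, 46.7 and 52.4 in LN DT. The lung PBS libraries held 25.2, 17.8, 28.4 and 16.4 CPM and the lung DT libraries 34.7, 31.8, 20.6 and 13.6. In LN 3 DT libraries lay above every PBS library, and the fourth, replicate 2, lay just below the highest PBS library; in lung the groups were mixed. The log2 fold change of DT over PBS was 1.07 ± 0.37 in LN (edgeR adjusted p = 0.267; 95% interval 0.28 to 1.85) and 0.20 ± 0.37 in lung (adjusted p = 0.836; 95% interval -0.58 to 0.98). In LN the adjusted p was 0.0962 in DESeq2 and 0.0359 in limma-voom, where the value was 0.84; over all alternatives it ran from 0.0359 to 1. Averaged over both tissues it was 0.63 ± 0.26 (adjusted p = 0.158). The difference between the tissues was -0.87 ± 0.52 (adjusted p = 1.00), so the 2 effects were not shown to differ.

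Dusp1 in lung was the other phosphatase with a sizeable DT value. The means in lung were 3207 ± 2030 CPM with PBS and 1809 ± 788 with DT (SD, n = 4), the ranges overlapped, and the log2 fold change of -0.83 ± 0.49 did not pass (adjusted p = 0.442; 95% interval -1.85 to 0.20). Much of it rested on lung PBS replicate 1, the library at 6141 CPM, without which the value was -0.31. In LN the value was 0.23 ± 0.49 (adjusted p = 0.901), and the difference between the tissues was -1.06 ± 0.69 (adjusted p = 1.00). Without LN DT replicate 1 the LN value turned to -0.40.

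Dusp2, Dusp5 and Dusp6 gave no called value of DT over PBS. In LN they were -0.50 ± 0.50 (adjusted p = 0.733), -0.28 ± 0.49 (adjusted p = 0.870) and -0.31 ± 0.44 (adjusted p = 0.830) on the log2 scale. In lung they were -0.12 ± 0.49 (adjusted p = 0.929), 0.013 ± 0.49 (adjusted p = 0.995) and -0.14 ± 0.44 (adjusted p = 0.906). The 95% interval was -1.54 to 0.54 for Dusp2 in LN and -1.01 to 1.04 for Dusp5 in lung, which in folds is 0.343 to 1.46 and 0.496 to 2.05. Dusp4 had 17 counts in LN DT against 3 in LN PBS, a ratio of 6.38 (95% counting interval 1.84 to 34.0), while for lung the counts were 49 with DT and 21 with PBS, which gives 2.35 (interval 1.38 to 4.12), with 44 of the 49 in replicate 2.

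**Figure D3:**
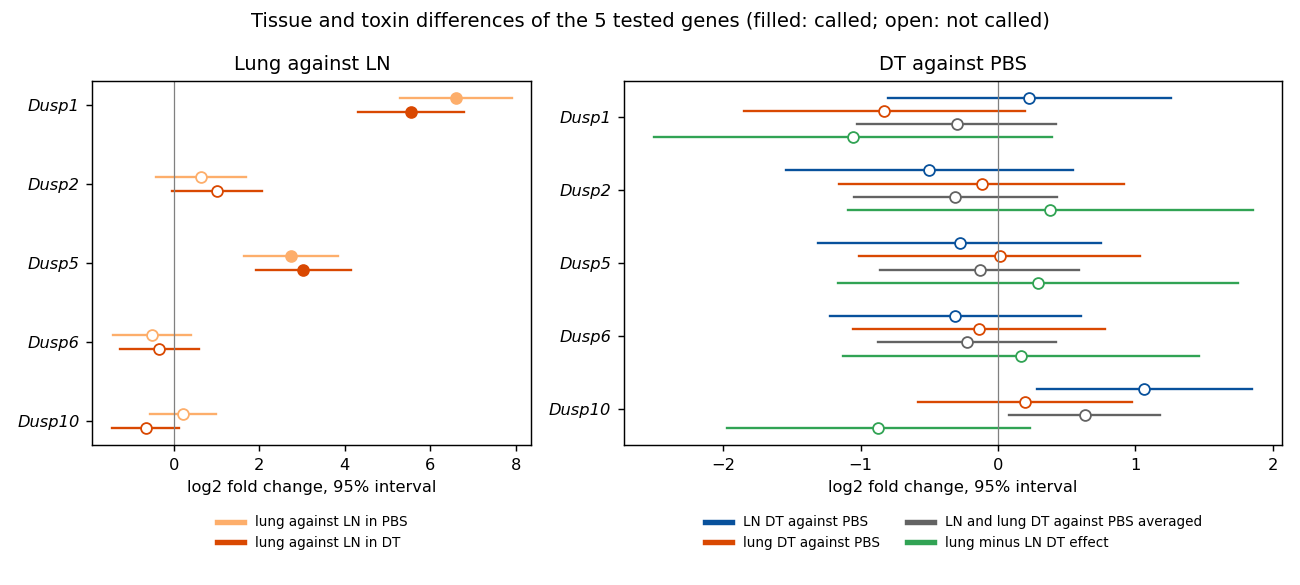
Points are log2 fold changes of the 5 tested phosphatases and lines their 95% intervals, for lung against LN at left and DT against PBS at right; filled points were called and open ones were not. Dusp1 and Dusp5 are filled in both tissue comparisons, and all points of the DT comparisons are open, with that of Dusp10 in LN at 1.07 the farthest above 0.

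The rest of the dual specificity phosphatase family was read from a list of 20 genes, of which 12 were tested. In lung against LN 2 were called higher in PBS and 3 in DT, beside 2.7% and 3.97% of all tested genes, and 0 were lower. The median log2 fold change of the 12 was -0.18 in PBS and 0.24 in DT, beside -0.012 and -0.041 for all tested genes. Dusp3, a small phosphatase of ERK and JNK, rose from 8.44 to 29.1 CPM in PBS (adjusted p = 0.0212) and from 10.6 to 48.7 in DT (adjusted p = 0.00473). Dusp8, a phosphatase of JNK and p38, rose from 1.25 to 22.3 CPM in PBS (adjusted p = 0.0374) and from 0.319 to 22.5 in DT (adjusted p = 0.00651). Dusp16, a phosphatase of JNK, was called in DT (8.25 to 75.1 CPM; adjusted p = 0.00468) and had 4.96 and 21.97 CPM in PBS (adjusted p = 0.0506). In PBS the call of Dusp3 was lost without any 1 of 6 libraries (LN PBS replicates 1 to 4, lung PBS replicates 2 and 3). The call of Dusp8 was lost without any 1 of 8 (LN PBS replicates 1 to 4, LN DT replicate 2, lung PBS replicates 2 to 4).

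Kinases of the MAP kinase cascade were read as a further list. Of 26 MAP kinases and upstream kinases 24 were tested, and 0 in PBS and 1 in DT were called higher in lung, with medians of 0.22 and 0.25 on the log2 scale; 1 of 24 is near the 3.97% of all genes called higher in DT. In PBS, where edgeR called 0 in either direction, 3 had an unadjusted p under 0.05, DESeq2 called 1 and limma-voom 3, beside 16.9%, 8.44% and 16.5% of all genes. The gene called in DT was Map2k3, the activator of p38, at 78.1 CPM in LN DT and 242 in lung DT (log2 fold change 1.63 ± 0.36; adjusted p = 0.0114), whose call was lost with only the 2 groups in the fit (adjusted p = 0.1002). Of 15 RAS genes and their activators edgeR called 0 in PBS, where 2 had an unadjusted p under 0.05, DESeq2 called 0 and limma-voom 3. In DT it called 1, which was lower, as were 2.78% of all genes: Rasgrp1, the RAS activator of lymphocyte receptors, from 206 to 63.2 CPM (adjusted p = 0.00816). Of 17 other brakes of RAS and ERK 15 were tested, and 1 was called higher in each comparison, beside 2.7% and 3.97% of all genes. The medians of the 15 were 0.74 in PBS and 0.16 in DT, with 11 and 9 above 0, beside -0.012 and -0.041 for all genes. In PBS 4 had an unadjusted p under 0.05 in edgeR, DESeq2 called 1 and limma-voom 6, beside 16.9%, 8.44% and 16.5% of all genes. The brakes that edgeR called were Errfi1, a brake of EGF receptors, in PBS (35.3 to 137 CPM, adjusted p = 0.042) and Spred3, a brake of RAS, in DT (0.401 to 13.1 CPM, adjusted p = 0.0432). Either call was lost without any 1 of 11 libraries. Without lung DT replicate 1 the log2 fold change of Spred3 went from 4.95 to 2.66 (adjusted p = 0.179). For DT on average over both tissues 1 of the 15 brakes was called, beside 3.9% of all genes. This was Pebp1, which was lower with DT (log2 fold change -0.85 ± 0.23, adjusted p = 0.0461).

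Dusp1 and Dusp5 belong to the transcripts that ERK induces. A list of 24 other genes linked to ERK, named ERK-responsive here, was read beside them. The list also holds the transcription factor genes Srf and those of the Elk family. ERK activity itself was not measured, and tissue and digestion cannot be told apart for this list either. Of the 22 tested, 13 were called higher and 1 lower in lung in PBS, and 14 higher and 0 lower in DT. Called higher were 2.7% and 3.97% of all tested genes, and called lower in PBS were 126 of 13940. The medians of the 22 were 2.33 and 2.37 on the log2 scale, beside -0.012 and -0.041 for all tested genes. Nr4a1, an immediate early nuclear receptor, had a mean of 41.2 CPM in LN and 1587 in lung with PBS (log2 fold change 5.27 ± 0.49; adjusted p = 4.73e-06). Fos, an AP-1 subunit, stood at 3.33 and 523 CPM (7.30 ± 0.88; adjusted p = 8.88e-05), and Fosl2, another, at 32.6 and 617 (4.24 ± 0.39; adjusted p = 4.73e-06). Myc was the exception in PBS, with 183 CPM in LN and 44.0 in lung (-2.05 ± 0.47; adjusted p = 0.0181); its call was lost without any 1 of 5 libraries (LN PBS replicates 3 and 4, lung PBS replicates 2 to 4). In DT against PBS edgeR called 0 of the 22 in LN, where 2 had an unadjusted p under 0.05, DESeq2 called 1 and limma-voom 5. In lung edgeR called 0, with 1 at an unadjusted p under 0.05, and both other tools called 0. The 2 and the 5 of 22 in LN stand beside 11.8% and 26.8% of all genes.

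**Figure D4:**
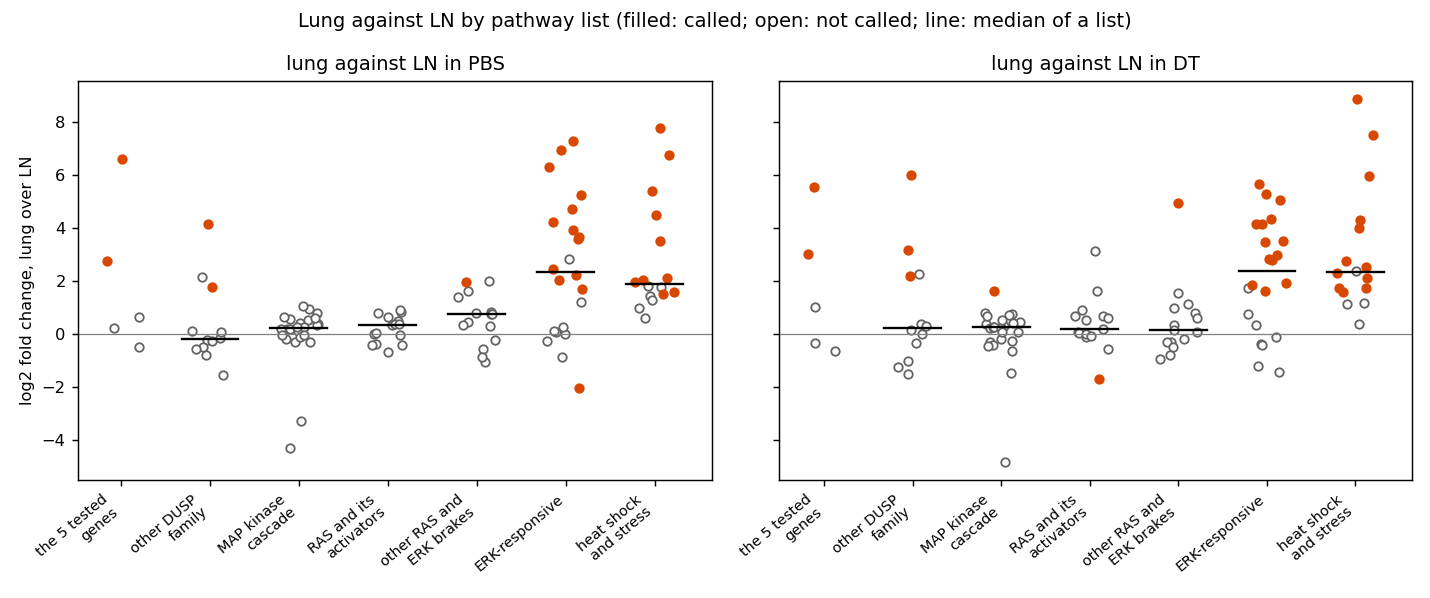
Each point is the log2 fold change of lung over LN of 1 tested gene, in PBS at left and DT at right; filled points were called and lines are list medians. The medians in PBS are 2.33 for the ERK-responsive list, 1.88 for the heat shock and stress list and 0.22 for the kinase list. In PBS 3 ERK-responsive genes and 8 kinases lie below 0, with Mapk11 among them at -4.30.

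Heat shock and stress genes known to rise when tissue is dissociated moved with the lung groups as well. Of the 16 on the list 10 were called higher in PBS and 12 in DT, with medians of 1.88 and 2.34. Of all tested genes 2.7% and 3.97% were called higher, with medians of -0.012 and -0.041. The 10 became 6 without any 1 of LN PBS replicates 1, 3 and 4. Hspa1a, the inducible heat shock protein, had means of 0.601 CPM in LN and 131 in lung with PBS (adjusted p = 0.00612), and Atf3, a stress factor, of 2.19 and 93.4 (adjusted p = 0.000877). Over libraries the list summed to 2156 to 6107 CPM in LN and 7426 to 20682 in lung. Its part in the values of Dusp1 and Dusp5 was not tested.

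Markers of macrophages and other myeloid cells, and of neutrophils, also differed between the tissues. Of the 11 myeloid markers 10 were tested, and 3 were called higher and 1 lower in lung in PBS, and 4 and 1 in DT. Of all tested genes 2.7% were called higher and 126 of 13940 lower in PBS, and 3.97% and 2.78% in DT. In LN the list summed to 625 to 1086 CPM with PBS and 942 to 1489 with DT, and in lung to 658 to 2829 with PBS and 449 to 4096 with DT. Most of the LN sum was Ccr2, which was the marker called lower in lung and averaged 661 CPM in LN and 288 in lung with PBS. Without Ccr2, a choice made after seeing the data, the other 10 summed to 77.4 to 488 CPM in LN and 182 to 3927 in lung. Of 6 neutrophil markers 5 were tested. In PBS 0 were called higher in lung (smallest adjusted p = 0.0571) and in DT 3, beside 2.7% and 3.97% of all tested genes. The sum of the 6 in LN was 0.485 to 10.53 CPM with PBS and 0.660 to 5.53 with DT. In lung it was 14.8 to 100.2 with PBS and 8.78 to 289 with DT. Retnlg and Ly6g were at 0 in both LN groups. Lung DT replicate 4 held the least of both lists among lung libraries, with 449 CPM of myeloid markers (182 without Ccr2, within the LN range) and 8.78 of neutrophil markers, and it held 1932 CPM of Dusp1 and 256 of Dusp5. The lung DT library with the most was replicate 2. It held 943 CPM of Dusp1, the lowest of the 8 lung libraries, and 599 of Dusp5, the highest. By myeloid markers without Ccr2, lung DT replicate 3 (3568 CPM) and lung PBS replicate 2 (2587) came next. They held 419 and 503 CPM of Dusp5, and 1539 and 1889 of Dusp1. Lung DT replicate 1 followed at 1371 and held 61.5 CPM of Dusp5, the lowest, and 2821 of Dusp1. The part of these cells in the values of Dusp1 and Dusp5 was not tested.

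Markers of T cells, of B and plasma cells and of lung tissue were followed in the same way. Of 8 T cell markers 7 were tested, and 2 were called lower in lung in PBS, as were 126 of all 13940 tested genes. The sum of the 8 in LN was 474 to 512 CPM with PBS and 379 to 797 with DT. In lung it was 125 to 174 with PBS and 143 to 705 with DT, with Cd8b1 at 0 in both lung groups. For the 9 B and plasma cell markers it was 68.9 to 116 CPM in LN with PBS and 188 to 1211 with DT, and 11.5 to 99.6 in lung with PBS and 11 to 169 with DT. Of these Jchain (log2 fold change -6.602, adjusted p = 0.00916) and Cd22 (-4.10, adjusted p = 0.0174) were called lower in lung in DT, as were 2.78% of all tested genes. For the 11 epithelial, endothelial and fibroblast markers it was 82.0 to 202 CPM in LN with PBS and 74.9 to 138 with DT. In lung it was 83.8 to 118 with PBS and 75.8 to 347 with DT. Of the 5 tested 1 was called higher in lung in DT, beside 3.97% of all tested genes. This was Sftpc, of lung epithelium (log2 fold change 6.21, adjusted p = 0.0365). Pdgfra, the fibroblast receptor, was at 0 in all groups but lung PBS. In LN, where Dusp10 had its DT value of 1.07, the B and plasma cell list had a median log2 fold change of 2.84. Of its 8 tested genes 1 was called, Jchain, beside 0.0646% of all tested genes. The part of this list in the Dusp10 value was not tested.

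In lung DT replicate 1, which also stood apart in Malat1 at 17164 CPM, the 2 phosphatases did not follow the lists alike. This library had the fewest genes detected of the 16, at 14032. It had the lowest sum of ERK-responsive genes of the 8 lung libraries (3676 CPM, the others 6705 to 12572) and the highest sum of heat shock and stress genes (20682). It had the lowest Dusp5, at 61.5 CPM, and the third highest Dusp1, at 2821. Lung PBS replicate 1 had the highest sum of ERK-responsive genes and the highest Dusp1.

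**Figure D5:**
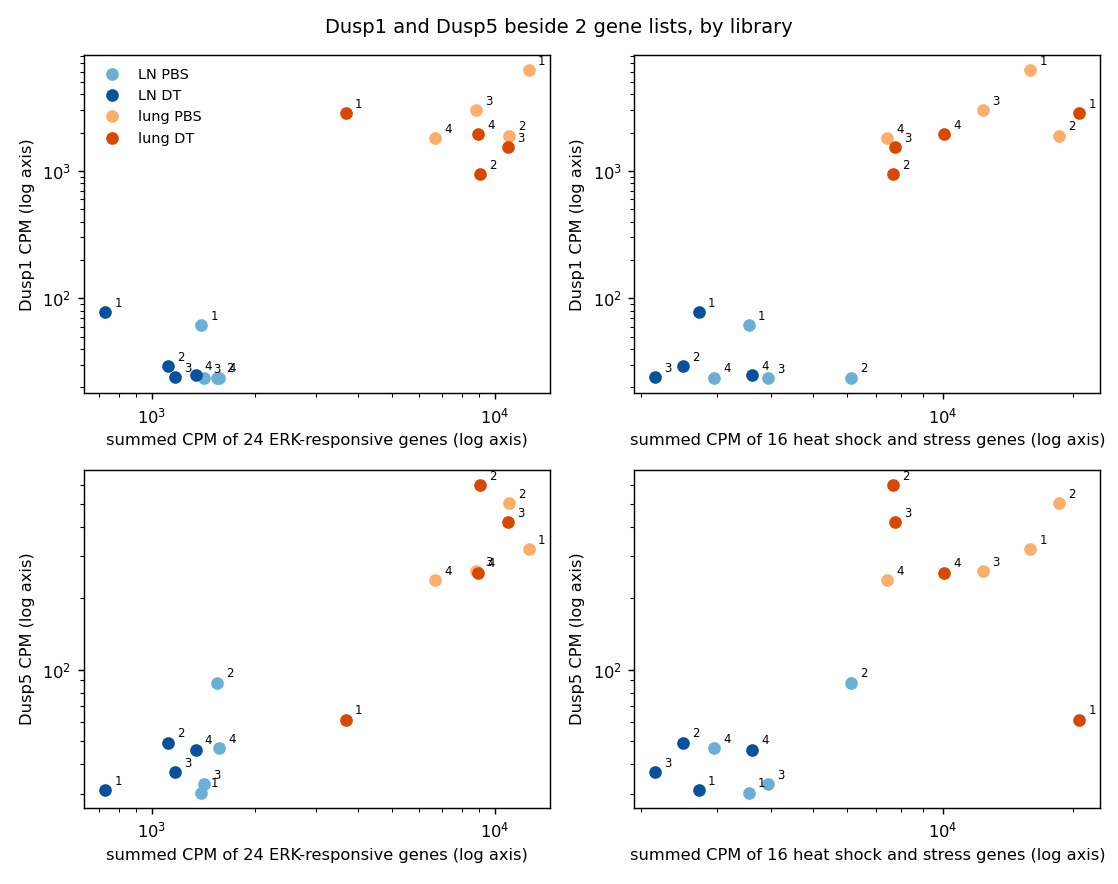
Each point is a library, coloured by group and numbered by replicate; Dusp1 (upper) and Dusp5 (lower) are plotted in CPM against the summed CPM of 24 ERK-responsive genes at left and 16 heat shock and stress genes at right, all on log scales. LN and lung libraries form separate clouds in all 4 panels, and lung DT replicate 1 lies apart from the other lung libraries in ERK-responsive genes and in Dusp5.

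The genes most like each phosphatase over the 16 libraries were searched among 8280 tested genes with a mean of at least 10 CPM, by Pearson's r of log2 CPM. The 16 libraries fall into 2 tissues, so r is also given over the 8 libraries of each; all are descriptions over libraries that share depth and scaling. Dusp1 was most like Nr4a2, an immediate early nuclear receptor (r = 0.983; 0.746 within LN and 0.477 within lung). It was followed by Pik3r1, the regulatory subunit of PI3 kinase (0.982; 0.329 and 0.855), and Rgs2, a brake of G protein signals (0.976; 0.221 and 0.756). Dusp5 was most like Zmiz1, a transcriptional coregulator (0.957; 0.784 and 0.901), Tob2, an antiproliferative factor (0.935; 0.855 and 0.792), and Nfkbia, the inhibitor of NF-kappaB (0.932; 0.329 and 0.821). For Dusp1 and Dusp5 alike, the likeness within a tissue was thus lower than over both.

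For the 3 phosphatases not called between tissues, r with the most alike genes was 0.625 or more within each tissue. Dusp2 went with Zfp622 (r = 0.888; 0.721 within LN and 0.943 within lung), Rab20 (0.887; 0.843 and 0.865) and Trak1 (0.861; 0.778 and 0.880). Dusp6 went with Rnf41 (0.876; 0.899 and 0.814), Actr8 (0.866; 0.848 and 0.900) and Pold3 (0.865; 0.863 and 0.876). Dusp10 went with Wdr95 (0.823; 0.874 and 0.800), Gbp8, an interferon-induced GTPase (0.763; 0.850 and 0.625), and Ap4e1 (0.698; 0.850 and 0.697). Gbp8 averaged 3.75 CPM with PBS and 29.1 with DT in LN, and 5.97 and 19.6 in lung; the means of Dusp10 were 18.9 and 39.6 CPM in LN, and 21.9 and 25.2 in lung.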

How the data were processed

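Raw counts per gene were deposited by the authors for 16 libraries in 4 groups. Per the submitters' processing notes HISAT2, HTSeq and GRCm38 were used; the sources used here do not give their versions. Libraries were full length in the style of Smart-seq2, per the labels' protocols. All columns were used.

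Genes kept by filterByExpr were scaled by TMM and fitted with edgeR 4.0.16 (R 4.3.3; quasi-likelihood, robust) as 4 group means with 12 residual degrees of freedom. The 6 contrasts were tested two-sided, with Benjamini-Hochberg adjustment over 13940 genes. Levels are CPM on TMM-scaled sizes; exon lengths are unions of protein-coding exons within the deposited gene span (GENCODE, GRCm38). Dusp4 ratios have exact 95% counting intervals. Libraries of a group were taken as separate mice. Depth was 3929560 to 10744934 counts; Dusp4 was below the filter. The model was tested on counts simulated with the dispersions of these data. Of genes set to a 2-fold DT change it called 1.49% in LN, 4.48% in lung and 20.9% averaged. For the difference between the tissues it called 2.99%. At 4-fold these were 46.3%, 46.3%, 56.7% and 7.46%. A DT change of 2-fold would thus mostly not be called. Alternatives used DESeq2 1.42.0 and limma 3.58.1, among others.

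The 6 genes, the 12 lists and the rule for names were chosen with earlier results of these data known. The rule names all 6 genes, from each list at most the 3 of smallest p plus those called, and the 3 genes most alike, leaving out predicted genes and immunoglobulin and T cell receptor segments. Same-numbered LN DT and lung DT libraries deviated together from their group means (r = 0.184 to 0.412 over genes, each of 4 best with its own number), so the replicate block was also fitted; this pairing comes from the data, not from the labels.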

Additional observations from a re-analysis of the deposited data

Results flagged for a closer look

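In 5 of the 24 sets of 4 libraries (6 genes in 4 groups), 1 library lay far from the other 3 for its range; by its construction the criterion, Dixon's, picks about 1 of 20 groups by chance where values are normal, a rate not measured for these counts. A group with 1 library above 0, as for Dusp4 in LN PBS, always meets it. Dusp1 was at 61.3 CPM in LN PBS replicate 1 and at 77.4 CPM in LN DT replicate 1, with the other 6 LN libraries at 23.7 to 29.3. Dusp4 was at 0.372 CPM in LN PBS replicate 3, which is 3 counts with 0 in the other 3 libraries, and at 5.51 CPM in lung DT replicate 2, which is 44 counts with at most 4 in the others. Dusp6 was at 108 CPM in lung PBS replicate 1, with 42.2 to 52.9 in the others.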

How the results depend on the processing

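Dusp1 and Dusp5 remained called in lung against LN under 27 alternatives in PBS and 28 in DT, 16 of which leave out 1 library. Without 1 library, Dusp1 ran from 6.07 to 7.08 in PBS and 5.28 to 6.14 in DT, and Dusp5 from 2.50 to 3.18 and 2.58 to 3.40 (log2). Of the DT comparisons, limma-voom alone called 1 phosphatase, Dusp10 in LN. Counts of phosphatases called did not change when any 1 library was left out (0 in each DT comparison, 2 in each tissue comparison).

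Signs of small uncalled values turned in 44 of 805 recomputed values; the cause was not tested. With the mitochondrial share as a covariate these were, in LN, Dusp1 -0.30, Dusp2 0.21, Dusp5 0.10 and Dusp6 0.27, in lung Dusp2 0.74 and Dusp6 0.67, and averaged Dusp2 0.47, Dusp5 0.24 and Dusp6 0.47. Without both DT libraries numbered 1 they were Dusp1 -0.34 in LN, Dusp2 0.027 and Dusp10 -0.067 in lung, Dusp5 0.064 averaged and Dusp6 -0.56 for the difference between tissues. In limma-voom they were Dusp2 0.078 and Dusp10 -0.10 in lung, Dusp5 0.058 averaged and Dusp6 -0.20 for the difference. Dusp5 in lung was -0.010 with no gene filter and -0.014 with only the 2 groups. With 1 library left out, ranges that crossed 0 were, in LN, -0.40 to 0.71 for Dusp1 and -0.46 to 0.16 for Dusp5; in lung, -0.44 to 0.17 for Dusp2, -0.44 to 0.31 for Dusp5, -0.61 to 0.27 for Dusp6 and -0.050 to 0.34 for Dusp10; averaged, -0.36 to 0.079 for Dusp5; for the difference, -0.037 to 0.67 for Dusp2, -0.16 to 0.64 for Dusp5 and -0.26 to 0.58 for Dusp6; and for lung against LN in DT, -0.73 to 0.074 for Dusp6.

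With the replicate block Dusp5 was -0.19 in lung DT against PBS and -0.028 for the difference between the tissues; no phosphatase changed its call. For lung against LN in DT, where the numbers pair the libraries, a replicate block within the 2 DT groups, chosen after seeing the data, gave 5.63 for Dusp1 (adjusted p = 0.000227) and 2.69 for Dusp5 (adjusted p = 0.021), with 515 genes called in all against 941. It called 1 of the other family phosphatases in place of 3 (Dusp3 at adjusted p = 0.0569, Dusp16 at 0.0518), 2 kinases in place of 1 and 2 brakes in place of 1.

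Counts over all genes depended on the tool. In LN 9 genes were called by edgeR, 326 by DESeq2 and 3736 by limma-voom for DT, and in lung 15, 456 and 435. Averaged they were 544, 1591 and 3781, for the difference 1, 19 and 0, for the tissues in PBS 503, 1177 and 2296, and in DT 941, 1733 and 1804. With 1 library left out they ran from 0 to 122, 1 to 129, 89 to 1334, 0 to 3, 268 to 992 and 471 to 1554 in the same order. With only the 2 groups compared they were 41 in LN, 0 in lung, 1425 for the tissues in PBS and 322 in DT. With the mitochondrial share as a covariate 1 gene was called in LN, 1 in lung and 0 averaged. In lung this share was 0.951 to 2.57% with PBS and 3.11 to 4.397% with DT. Share and treatment therefore cannot be told apart there, nor in the signs that turned in lung with this covariate. Without both DT libraries numbered 1 the genes called were 24 in LN, 474 in lung, 1373 averaged and 1362 for the tissues in PBS, and with no gene filter 23 in LN.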

Other observations

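The library numbered 1 held the highest Dusp1 of its group in 4 of 4 groups, 2.58 times the mean of the other 3 libraries in LN PBS, 2.96 times in LN DT, 2.76 times in lung PBS and 1.92 times in lung DT. Of 13940 tested genes, 103 (0.739%) were likewise highest in the library numbered 1 in every group and 244 (1.75%) lowest. Dusp5 was lowest in the library numbered 1 in 3 of 4 groups, at 0.542, 0.704, 0.965 and 0.145 times the mean of the other 3 in the same order. Whether the number marks a shared animal, day or batch is not given in the labels.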
